A study of Danio rerio with 2 samples.

Results

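Round and elongated spermatids of the adult zebrafish testis were compared, as the last step of male germ cell development seen in these single-cell libraries. Cells carrying the study's label SPD elongated (SPT-e) were set against cells carrying SPD round (SPT-r), which gave 1913 cells, out of 6091 cells with a germ cell stage and 9980 barcodes in all. Replicate 1 held 222 SPT-r and 426 SPT-e cells, labelled by the study, and replicate 2 held 438 and 827. A cell of replicate 2 took the stage held by most of its 15 closest neighbours, by distance over 30 principal components. The neighbours were the labelled cells and 112 unlabelled cells of replicate 1. Going from SPT-r to SPT-e, the median UMIs per cell fell to 0.161 of the SPT-r level. Most genes fell with them, and 83.6% of those tested were called lower per cell. A set of 223 genes, a large part of them pimr kinase genes, rose against this fall.

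Testes of adult males at 6 months of age were dissociated with trypsin, and single cells were profiled by 10x Genomics 3′ RNA-seq, in which every captured polyadenylated transcript carries a unique molecular identifier (UMI) and is counted once. Both libraries come from untreated fish. The labels call the fish wild type in the growth protocol and transgenic in the extraction protocol, the study's methods name AB/Tübingen fish, and whether testes of several fish were pooled is not given. The 2 libraries shared 8 barcodes. Passing cells held 25745204 UMIs in replicate 1 and 38950334 in replicate 2, of which the sums analysed here took 1885267 and 4135448 in SPT-r against 693732 and 1279478 in SPT-e.

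Spermatids are the haploid cells left by meiosis. They do not divide, and they turn from round cells into sperm by building a flagellum, compacting the nucleus and shedding most of the cytoplasm as a residual body. Transcription declines as chromatin is compacted, so that many late proteins are made from messengers stored earlier, and the ubiquitin, SUMO and autophagy systems clear much of the old content. The flagellum rests on the axoneme, a ring of microtubule doublets with dynein motors, radial spokes and proteins of the microtubule lumen, and it is assembled with the help of intraflagellar transport.

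The stage labels come from clustering of the same cells by expression, so the p-values given here set a difference against the spread between 2 replicates and are no independent test of it. When known labels of replicate 1 were hidden, 97.7% of SPT-r and 96.5% of SPT-e cells got them back. This check stayed within replicate 1, so it does not measure the transfer to replicate 2. There, all 15 neighbours agreed for 328 of 438 SPT-r and 509 of 827 SPT-e cells. At least 12 agreed for 391 and 792. EDRF1, the gene by which the study told SPT-e from SPT-r, stood at 20.7 and 32.9 UMIs per 1000000 UMIs (CPM) in SPT-r of replicates 1 and 2 and at 826 and 791 CPM in SPT-e, a difference that follows from the labelling. Markers of other cells were rare. The 5 matched Leydig markers took 0.007% to 0.024% of the UMIs of a sum, the 6 Sertoli markers 0.00014% to 0.0013%, the 5 immune markers 0.0036% to 0.0079% and the 3 erythroid markers 0.00042% to 0.0027%, and FXYD6, LCP1 and hbaa1 had no UMI at all. Free RNA was followed by insl3, a hormone of Leydig cells that germ cells should lack, at 66.3 and 97.5 CPM in SPT-r and 82.2 and 225 CPM in SPT-e.

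The median SPT-r cell held 7997.5 UMIs in replicate 1 and 8736.5 in replicate 2, and the median SPT-e cell 1374 and 1305. The ratio of SPT-e to SPT-r was 0.172 and 0.149, or 0.161 ± 0.016 (mean ± SD, n = 2), and this ratio was not tested. Between the 5th and the 95th percentile the stages did not overlap: SPT-r cells held 5022 to 12554 and 3985 to 17694 UMIs, and SPT-e 562 to 3049 and 547 to 2761. The shallowest cell held 501 UMIs in SPT-e of both replicates, against 3427 and 1231 in SPT-r. Any SPT-e cells below that depth are missing here and would lower the median and the ratio. Their number was not tested. Captured molecules were counted, so less RNA in a cell and poorer capture of it cannot be told apart.

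**Figure D1:**
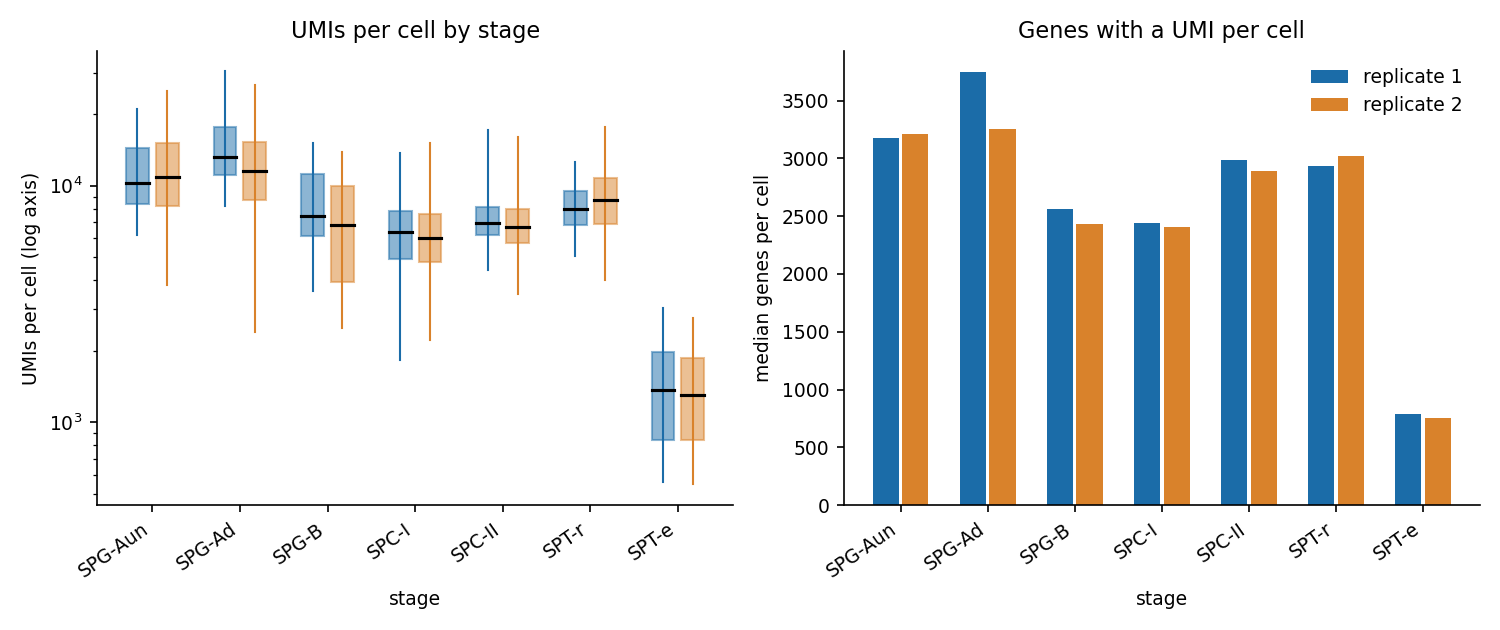
UMIs per cell on a log axis (left: line, 5th to 95th percentile; box, middle 50% of cells; black bar, median) and median number of genes with a UMI per cell (right) for the 7 germ cell stages in replicate 1 (blue) and replicate 2 (orange). SPT-e stands below all other stages on both measures in both replicates.

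Fewer UMIs went with fewer genes, from a median of 2931.5 and 3021.5 genes per SPT-r cell to 788 and 753 per SPT-e cell. After every cell was thinned to 500 UMIs, which left out none, the medians were 413 and 415 genes in SPT-r against 376 and 372 in SPT-e. SPT-e cells thus showed fewer genes at equal depth as well. The 100 genes with the most UMIs took 22.0% and 21.3% of the UMIs of SPT-r and 27.0% and 27.7% of those of SPT-e.

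Cells of the depth of SPT-r were rare among SPT-e. Only 7 and 12 SPT-e cells lay above the 5th percentile of SPT-r, but they held 10.31% and 11.4% of the UMIs of SPT-e. A simulation of doublets called 7 and 15 SPT-e cells, which held 8.79% and 11.4% of the UMIs, and 3 and 20 SPT-r cells. Values without called doublets are given beside several of the genes and lists.

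Since most genes had fewer UMIs in an SPT-e cell, genes were tested on both scales, as a share of the UMIs of a sum and as UMIs per cell, over 14006 genes. A gene was called when its log2 fold change exceeded 1 in either direction with an adjusted p below 0.05. In share of UMIs 875 genes were higher in SPT-e (6.25% of genes tested) and 2481 lower (17.7%), around a median log2 fold change of -0.38 over all genes. In UMIs per cell 223 genes were higher (1.59%) and 11706 lower (83.6%), around a median of -2.83.

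The split in share depended on the scaling. TMM factors, which align the bulk of genes, moved fold changes up by a median of 0.47 on the log2 scale and gave 1629 higher and 1085 lower. The size factors of DESeq2 moved them up by a median of 0.61 and gave 2029 and 859. Without SPT-e replicate 2 the counts in share fell to 511 and 1233, while those per cell stayed at 210 and 10887. All 223 genes higher per cell were higher in share as well. Counts of a gene list are given below by this test and, in brackets, with TMM factors and by the Wald test of DESeq2, since lists that fall by one scaling can rise by another. Each count by this test is to be read beside the 6.25% higher and 17.7% lower of all genes tested. These percentages are no background for the counts in brackets. Of all 14006 genes, TMM factors gave 1629 higher and 1085 lower, and the Wald test 2064 and 698. A larger count of higher genes in brackets thus goes with a larger count over all genes. Another 417 genes gained share with no call per cell, and 235 gained share while their UMIs per cell fell.

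The 223 genes that rose per cell took 0.033% and 0.029% of the UMIs in SPT-r against 2.43% and 2.86% in SPT-e, at 2.80 and 2.77 UMIs per SPT-r cell and 39.5 and 44.2 per SPT-e cell. Their median log2 fold change per cell was 4.42. Since these genes were picked by this contrast, the values describe them and test nothing. Of the 7 germ cell stages, SPT-e had the most UMIs per cell for 200 of the 223.

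TSSK6, a testis-specific serine kinase that mouse sperm need for chromatin condensation, was among the steepest. It stood at 0.53 and 2.18 CPM in SPT-r and at 376 and 520 CPM in SPT-e, with 1 and 9 UMIs in SPT-r against 261 and 665 in SPT-e. Both SPT-e sums were far above both SPT-r sums. The log2 fold change was 8.08 ± 0.35 (SE) in share (edgeR, adjusted p = 1.11e-09) and 5.56 ± 0.42 per cell (adjusted p = 5.95e-10), and the ratio of the mean UMIs per cell was 56.6. A UMI of TSSK6 was seen in 0.45% and 1.60% of SPT-r cells and in 34.0% and 43.9% of SPT-e cells, and in cells thinned to 500 UMIs in 0% of SPT-r and in 19.95% and 28.7% of SPT-e. A count of 0 in the 660 thinned SPT-r cells allows up to 0.455% of cells with a UMI at that depth, and sets no limit on the cells that express the gene.

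EDRF1, known in mammals for a part in erythroid differentiation, was at 17.6 and 31.1 UMIs per 100 SPT-r cells and at 135 and 122 per 100 SPT-e cells. Its log2 fold change per cell was 2.36 ± 0.34 (SE), given with no test for the same reason. It was measurable before the spermatid stages, at 59.6 UMIs per 100 cells in SPG-Aun, 15.6 in SPC-I, its lowest, and 30.8 in SPC-II. It stood at 24.3 in SPT-r and was highest in SPT-e at 128. TSSK6, by contrast, stayed between 1.00 and 4.18 UMIs per 100 cells in the 6 stages before SPT-e.

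Most of the strongest risers carry only provisional names. The study's markers si:dkey-151m22.8 and si:dkey-234d14.2 went from 2.12 and 3.39 CPM to 859 and 1064 CPM, and from 9.55 and 7.98 CPM to 1109 and 1383 CPM. Per cell they rose by 5.81 ± 0.43 and 4.66 ± 0.44 on the log2 scale. si:dkey-201i6.6 had no UMI in either SPT-r sum and 134 and 185 CPM in SPT-e, which is at least 336-fold higher in share against a floor of 3 UMIs over both SPT-r sums. Its neighbour in name, si:dkey-201i6.8, had 3 UMIs in SPT-r and 246 in SPT-e, a ratio of 250 with a 95% counting interval of 84.6 to 1222.

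Some markers that the study lists for SPT-e gained share without gaining molecules. The 5 that could be matched were all higher in share, as a list made on these cells would be, but only si:dkey-151m22.8 and si:dkey-234d14.2 rose per cell. ifi27.4, of an interferon-inducible family, went from 737 and 717 CPM to 2471 and 2396 CPM, while its UMIs per 100 cells were 626 and 677 in SPT-r against 402 and 371 in SPT-e. si:ch211-242f23.3 moved in the same way, with 854 and 898 UMIs per 100 cells in SPT-r against 488 and 436 in SPT-e. Both also differed within SPT-r, by the study's numbered clusters of replicate 1. ifi27.4 was at 267 CPM in SPT-r cluster 7, 1806 CPM in SPT-r cluster 11 and 2435 CPM in SPT-e cluster 2. For si:ch211-242f23.3 these were 449, 2269 and 2712 CPM, so much of both gains lay within SPT-r. si:dkey-6f10.3 was at 53.6 and 166 UMIs per 100 SPT-r cells and at 171 and 174 per 100 SPT-e cells, a difference that was not called (log2 0.63) and was called only without SPT-r replicate 2 (1.69).

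**Figure D2:**
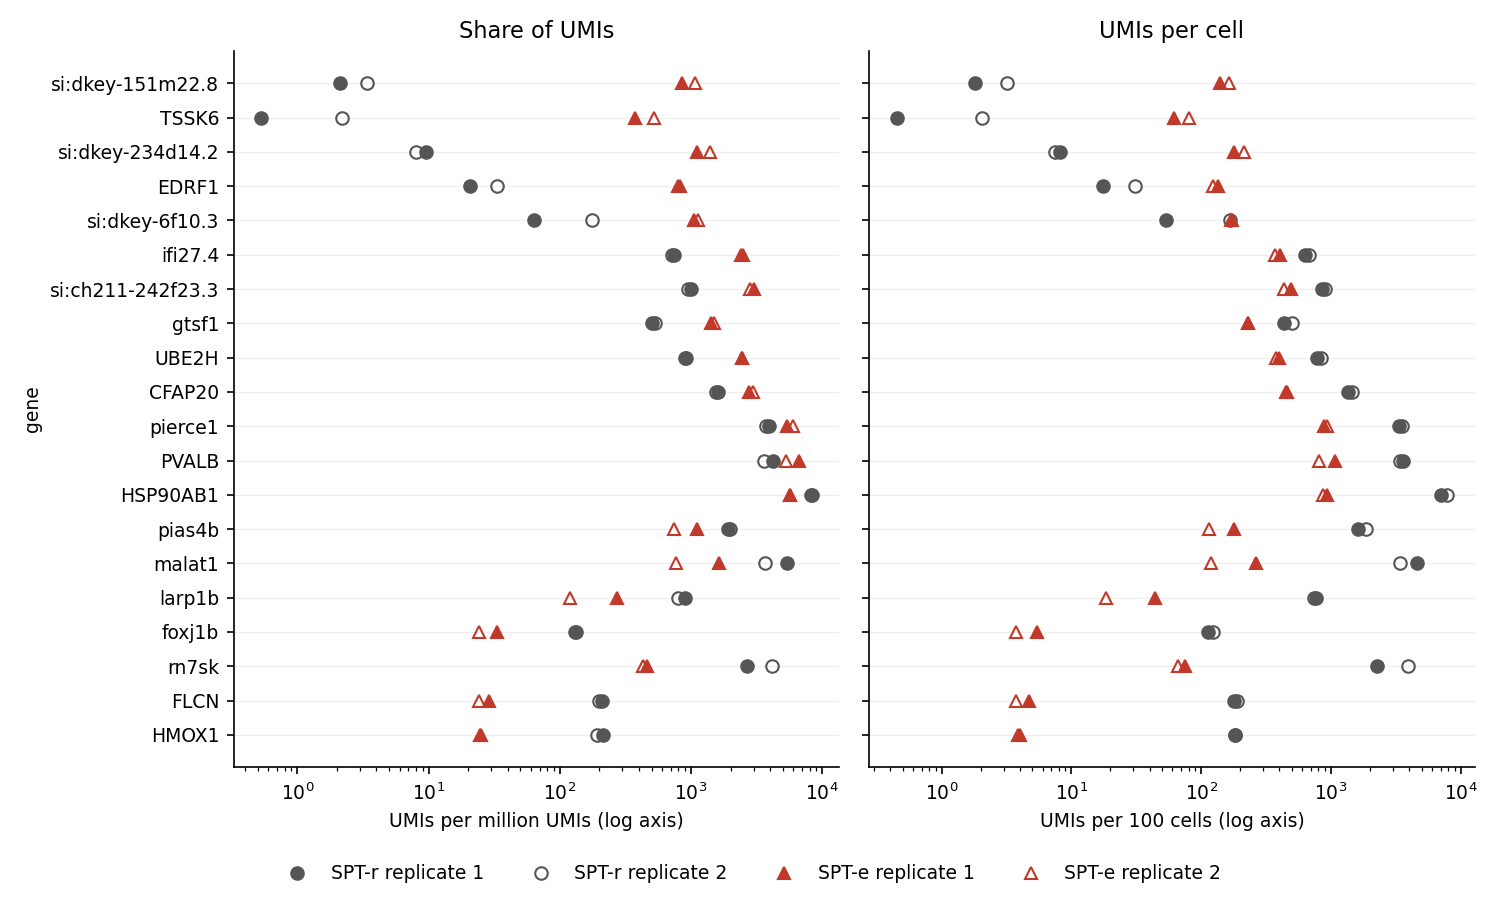
Share of UMIs (left, CPM) and UMIs per 100 cells (right), both on log axes, for 20 named genes in the 4 sums. Circles are SPT-r and triangles SPT-e, filled for replicate 1 and open for replicate 2. The genes at the top rise on both scales, those in the middle gain share while their UMIs per cell fall, and those at the bottom fall on both.

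Of the 223 genes, 180 have a symbol of a single identifier. These comprise 89 si: names, 72 pimr genes, 2 zgc: names and 17 others. TSSK6, EDRF1 and h2ax2 are among the 17, and the rest were named after their values were seen. They include nampt3.2 and nampt4.1, of the family of the NAD salvage enzyme, the one with 1 and 2 UMIs in SPT-r against 55 and 95 in SPT-e, the other with 8 and 15 against 66 and 143. The pseudokinase-like gene styk1b stood at 34 and 43 UMIs in SPT-r against 404 and 514 in SPT-e, and nkd3l, of the naked cuticle family of Wnt modulators, at 5 and 5 against 106 and 220. Others had few molecules, such as PCK1, the gene of a gluconeogenic enzyme, with 0 in SPT-r and 7 and 9 UMIs in SPT-e.

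The pimr genes, related to the Pim serine/threonine kinases and expanded to many near-identical copies in zebrafish, were the largest named family in this set. Their choice as a group followed from their values, so they are described and not tested. The files hold 180 of them, of which 40 had no UMI in the 4 sums and 85 had enough to enter the test. Reads that fit several near-identical copies can be lost or misplaced in ways the counts do not show. Values of single copies, copies with no UMI and the sum of the family are all uncertain for this reason.

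Of these 85, 77 were higher in share and 72 higher per cell, against 1 lower in share (pimr24) and 8 lower per cell. A copy seen almost only in SPT-e could enter the test on those counts, and could then only be called higher. The filter thus sets part of these counts and of the percentages that follow. The 72 make up 32.3% of the genes that rose per cell, and the 85 are 0.607% of the genes tested. All pimr genes together stood at 1.55 and 1.505 UMIs per SPT-r cell and at 8.09 and 8.76 per SPT-e cell, or 0.018% and 0.016% against 0.497% and 0.566% of UMIs. The highest earlier level per cell was that of SPG-Ad, with 3.11 and 2.93. The sum was thus higher in an SPT-e cell, where the median of all genes was lower by -2.83 on the log2 scale.

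Single copies ranged widely. The 72 that rose had 6.4 to 463 CPM in SPT-e, with the highest for pimr138, at 7.43 and 8.46 CPM in SPT-r and 512 and 413 CPM in SPT-e. For 21 of them no UMI was seen in SPT-r. pimr175 had 1 UMI in SPT-r and 282 in SPT-e, a ratio of 860 with a counting interval of 153 to 34105, and pimr125 had 2 and 291, a ratio of 444 with an interval of 122 to 3683. All 72 had their highest share of the 7 stages in SPT-e.

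A minority behaved like the bulk of the transcriptome. The 8 copies with fewer UMIs per cell in SPT-e were pimr24, pimr25, pimr27, pimr46, pimr47, pimr51, pimr60 and pimr64. Of these, pimr24 had 17 and 52 UMIs in SPT-r against 4 and 2 in SPT-e, and pimr51 had 31 and 96 against 14 and 24. Under the other settings tried between 61 and 73 pimr genes were higher per cell. Of the 72, 39 were found in the RefSeq table of assembly GRCz12tu, where 18 had another pimr gene as the next protein coding gene, so part of the family lies in clusters.

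**Figure D3:**
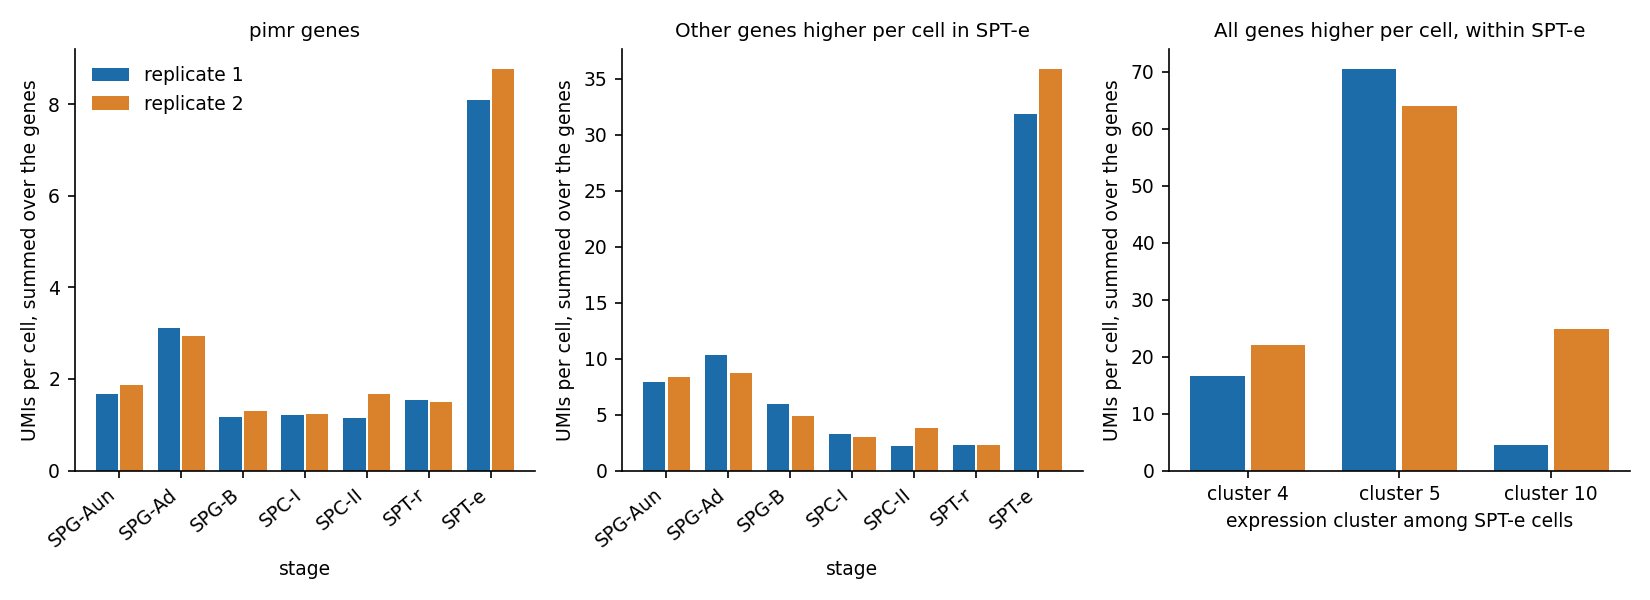
UMIs per cell summed over the 180 pimr genes (left) and over the non-pimr genes higher per cell in SPT-e (middle) in the 7 stages, and over all 223 genes within SPT-e by expression cluster (right), for replicate 1 (blue) and replicate 2 (orange). pimr genes stand at 8.09 and 8.76 in SPT-e and at or below 3.11 in every earlier stage. The 223 genes were chosen for being higher in SPT-e than in SPT-r.

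The genes of the set outside the pimr family had 2.30 and 2.30 UMIs per SPT-r cell and 31.8 and 35.9 per SPT-e cell. They were not silent before. In SPG-Ad they stood at 10.35 and 8.68 UMIs per cell, and their lowest level was that of SPC-II in replicate 1, at 2.22, and that of SPT-r in replicate 2.

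SPT-e itself held a shallow and a deeper population, and the risers sat mainly in the shallow one. The study divides SPT-e of replicate 1 into cluster 2, with 240 cells and a median of 1896 UMIs, and cluster 1, with 186 cells and 869 UMIs. The 223 genes took 0.739% of UMIs in cluster 2 and 7.197% in cluster 1, or 15.8 and 70.1 UMIs per cell. SPT-r cells of clusters 7 and 11 had 2.69 and 3.04. TSSK6 was at 0 and 1.73 CPM in clusters 7 and 11, 70.2 CPM in cluster 2 and 1242 CPM in cluster 1, while EDRF1 was already at 593 CPM in cluster 2 and reached 1485 CPM in cluster 1.

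Expression clusters computed here for both replicates, a division looked at after the values were known, showed the same for the 223 genes and TSSK6 in replicate 2, but not for EDRF1. Those of the 223 genes outside the lists were free to enter the variable genes behind these clusters, so the split may be partly their own. The study's clusters rest on expression of the same cells too. TSSK6 was at 81.8 and 167 CPM in cluster 4 and at 1207 and 1244 CPM in cluster 5. EDRF1 was at 677 and 857 CPM in cluster 4 and at 1493 and 925 CPM in cluster 5, so its step was small in replicate 2. Cluster 4 held 196 and 366 SPT-e cells with medians of 1940.5 and 1835 UMIs, and the 223 genes had 16.6 and 22.1 UMIs per cell there. Cluster 5 held 190 and 435 cells with medians of 872.5 and 886 UMIs, and the same genes had 70.4 and 64.0. Cluster 10 held 39 and 26 cells and cluster 9 the 1 cell left in replicate 1. In cluster 10 the genes had 4.51 and 24.8, and the replicates differed widely there. Mitochondrial genes took 0.889% and 0.861% of UMIs in the median cell of cluster 4 and 1.60% and 1.64% in that of cluster 5.

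Of 22 tested genes of the SUMO pathway, which joins a small ubiquitin-like protein to other proteins, 2 were higher in share, sumo3b among them, and 7 were lower (TMM 5 and 3, DESeq2 6 and 2). Among the lower was senp3a, of the family of proteases that take SUMO off again, at 39.3 and 28.8 CPM in SPT-r and 2.88 and 5.47 CPM in SPT-e. The ligase gene pias4b, a marker of SPT-r in the study, went from 1906 and 1966 CPM to 1109 and 739 CPM, a log2 fold change of -1.07 that was -0.80 without SPT-e replicate 2 and -0.64 with TMM factors. sumo3b rested on SPT-e replicate 2, with 15.9 and 74.2 CPM in SPT-e against 8.49 and 17.4 CPM in SPT-r, and its log2 fold change of 1.83 was 0.18 without that sum.

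Ubiquitin conjugation genes took a larger share of UMIs in SPT-e, 2.46% and 2.45% against 2.06% and 2.01%. Of 166 tested, 6 were higher (3.61%) and 39 lower (23.5%) in share, where all genes gave 6.25% and 17.7% (TMM 14 and 19, DESeq2 19 and 11). Abundant members gained. rnf4, a ligase that recognises SUMO chains, went from 1050 and 1212 CPM to 2440 and 2705 CPM, and UBE2H, a ubiquitin-conjugating enzyme known for histones as substrates, from 913 and 893 CPM to 2433 and 2448 CPM. Their log2 fold changes were 1.19 ± 0.17 and 1.43 ± 0.15 in share and -1.32 and -1.06 per cell. Within SPT-r of replicate 1, rnf4 was at 768 CPM in cluster 7 and 1691 CPM in cluster 11, and UBE2H at 588 and 1653 CPM. SPT-e cluster 2 had 2144 and 2121 CPM.

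Proteasome genes went the other way as a sum, from 1.14% and 1.12% to 0.830% and 0.777% of UMIs, with 0 of 57 higher and 11 lower in share, or 19.3% beside the 17.7% of all genes (TMM 0 and 4, DESeq2 4 and 3). At an unadjusted p under 0.05 edgeR had 2 higher. PSMB7, a catalytic subunit and the most abundant member in SPT-e, was at 991 and 982 CPM in SPT-r and 701 and 765 CPM in SPT-e, a log2 fold change of -0.43 that was not called. Of 44 genes of autophagy and the lysosome, 0 were higher and 12 lower, or 27.3% beside the 17.7% of all genes (TMM 3 and 4, DESeq2 4 and 2). At an unadjusted p under 0.05 edgeR had 3 of them higher. ATG4B, which processes the ubiquitin-like protein of the autophagosome, fell by 2.75 on the log2 scale, from 29.2 and 33.4 CPM to 8.65 and 2.34 CPM. Their sum took 0.380% and 0.377% of UMIs in SPT-r against 0.365% and 0.372% in SPT-e.

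The sums of the axoneme lists held or gained share, while their single genes were called in both directions. CFAP genes, a group named for cilia- and flagella-associated proteins, took 2.56% and 2.44% of the UMIs of SPT-r and 3.40% and 3.57% of those of SPT-e, a ratio of 1.40 ± 0.09 (mean ± SD, n = 2). Of 38, 0 were called higher and 2 lower in share by edgeR (TMM 9 and 0, DESeq2 14 and 0), 13 were higher at an unadjusted p under 0.05, and 37 were lower per cell. CFAP20, a protein of the doublet junction, was at 1591 and 1547 CPM in SPT-r and 2788 and 2954 CPM in SPT-e, with a log2 fold change of 0.87 that missed the limit and was 1.34 with TMM factors.

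Genes of tektins, radial spokes and proteins inside the microtubules showed the same, at 2.68% and 2.59% in SPT-r against 3.59% and 3.92% in SPT-e. Of 31, 1 was higher and 4 were lower in share (TMM 11 and 1, DESeq2 12 and 1). pierce1, whose product lies inside doublet microtubules, was among the 5 most abundant transcripts of SPT-e at 5380 and 5995 CPM, after 3956 and 3736 CPM in SPT-r. EFHC2, another protein of the microtubule lumen, was the member called higher, from 364 and 420 CPM to 727 and 1309 CPM, a log2 fold change of 1.38 that was 0.89 without SPT-e replicate 2. The spoke gene rsph10b fell, from 182 and 165 CPM to 57.7 and 50.02 CPM.

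Among 40 genes of axonemal dyneins and their docking, 3 were higher and 5 lower in share (TMM 6 and 1, DESeq2 8 and 0), and their sum was 1.04 and 1.09 times as high in SPT-e. The heavy chains did not move together. dnah9, of the outer arm, went from 124 and 90.2 CPM to 381 and 306 CPM, a log2 fold change of 1.69 ± 0.26 (edgeR, adjusted p = 2.14e-04). In replicate 1 it was at 73.4 CPM in SPT-r cluster 7, 238 CPM in SPT-r cluster 11 and 345 CPM in SPT-e cluster 2. DNAH3 of the inner arm went from 65.8 and 63.1 CPM to 23.1 and 22.7 CPM, or -1.49 ± 0.22, which was -0.88 with the size factors of DESeq2. DNAH1, an inner arm chain that the study names for spermatids, was not called, at 182 and 166 CPM in SPT-r and 98.0 and 121 CPM in SPT-e.

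Genes of intraflagellar transport and the BBSome, its cargo adaptor, took a smaller share and went from 1.11% and 0.957% of UMIs to 0.876% and 0.712%. Of 30, 1 was higher (3.33%) and 8 lower (26.7%), where all genes gave 6.25% and 17.7% (TMM 1 and 5, DESeq2 2 and 3). BBS5, a subunit of the BBSome, went from 84.9 and 65.8 CPM to 14.4 and 8.60 CPM, a fall of 2.79 on the log2 scale. Of 36 kinesin genes 0 were higher and 8 lower by edgeR, or 22.2% lower (TMM 1 and 3, DESeq2 1 and 2), with 2 higher at an unadjusted p under 0.05. Of 66 genes of centrioles and the manchette 2 were higher and 12 lower, or 3.03% and 18.2%, the latter near the 17.7% of all genes (TMM 5 and 7, DESeq2 7 and 6). Their sum went from 1.61% and 1.48% to 1.71% and 1.69%. cep162, of the distal end of the centriole, fell from 90.7 and 73.0 CPM to 12.97 and 11.7 CPM. CEP41 was one that rose in share, from 179 and 161 CPM to 471 and 426 CPM. Within replicate 1 it was at 103 CPM in SPT-r cluster 7, 352 CPM in SPT-r cluster 11 and 427 CPM in SPT-e cluster 2.

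Tubulins had 0 of 16 higher and 7 lower in share by edgeR (TMM 1 and 4, DESeq2 2 and 4), with 2 higher at an unadjusted p under 0.05. The most abundant was tuba7l, among the top 5 transcripts of SPT-r, at 5965 and 5348 CPM there and 4849 and 4836 CPM in SPT-e, with no call in share. TUBA1A, an alpha tubulin with much lower counts, fell from 82.7 and 88.0 CPM to 14.4 and 10.2 CPM, a log2 fold change of -2.85.

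foxj1b, a paralogue of the master regulator of motile cilia, and RFX factors frame this group. foxj1b went from 133 and 130 CPM to 33.2 and 24.2 CPM, or by -2.24 ± 0.21 in share (edgeR, adjusted p = 2.24e-06), and from 113 and 123 UMIs per 100 cells to 5.40 and 3.75. rfx3, looked at after its values were seen, went from 497 and 406 CPM to 1111 and 1167 CPM, while its log2 fold change per cell was -1.15. Of 126 genes of transcription factors and RNA polymerase II, 6 were higher (4.76%) and 25 lower (19.8%) in share, near the 6.25% and 17.7% of all genes (TMM 12 and 12, DESeq2 12 and 7). cremb, a relative of the spermatid activator CREM, was the most abundant of them in SPT-e and had the same share as before, at 2565 and 2594 CPM in SPT-r and 2420 and 2428 CPM in SPT-e.

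The largest falls of abundant RNAs included noncoding ones of the nucleus. The assay is made for polyadenylated transcripts, and how such RNAs came to be captured was not tested. Their UMIs need not follow their levels. rn7sk, the RNA that holds the elongation factor P-TEFb inactive, went from 2689 and 4152 CPM to 458 and 430 CPM, or by -2.95 ± 0.50 in share (edgeR, adjusted p = 4.40e-04). Per 100 cells it went from 2283 and 3920 UMIs to 74.6 and 66.5. malat1, a nuclear speckle RNA and among the 5 most abundant in SPT-r, went from 5383 and 3637 CPM to 1623 and 763 CPM, or by -1.92, and by -1.47 with no call without SPT-e replicate 2. At 500 UMIs per cell, rn7sk was seen in 45.9% and 66.4% of SPT-r cells and in 15.3% and 15.7% of SPT-e cells, while insl3 went the other way, from 3.15% and 5.48% to 5.63% and 11.7%, and without thinning from 44.6% and 53.0% to 12.7% and 25.3%.

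Among coding genes of at least 100 CPM the steepest falls in share were those of PHLDA2, HMOX1, FLCN and ATP6AP2. HMOX1, the haem-degrading oxygenase, went from 213 and 192 CPM to 24.5 and 25.01 CPM, and FLCN, which acts at the lysosome in nutrient signalling, from 209 and 200 CPM to 28.8 and 24.2 CPM. ATP6AP2, an accessory protein of the proton pump, went from 350 and 329 CPM to 57.7 and 35.2 CPM. The log2 fold changes were -3.19, -3.02, -2.97 and -2.93. tctn1, of the ciliary transition zone, fell by 2.54, and sema6ca, a semaphorin, by 2.78. None of these 6 calls was lost under any setting tried.

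Markers of SPT-r in the study fell in share for 5 of the 6 matched, as a list made on these cells would. larp1b, related to an RNA-binding repressor of translation, went from 899 and 789 CPM to 271 and 119 CPM, or by -2.15 ± 0.27. PPP1R42 and si:ch211-188i4.4 fell by 1.16 and 1.15, which became -0.70 each with TMM factors. The exception, emb, had 945 and 751 CPM in SPT-r and 807 and 374 CPM in SPT-e.

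Some of the most abundant transcripts changed too little to be called. PVALB, a calcium-binding parvalbumin, had 4205 and 3579 CPM in SPT-r and 6615 and 5270 CPM in SPT-e. HSP90AB1, a chaperone, had 8252 and 8319 CPM in SPT-r and 5704 and 5662 CPM in SPT-e, and neither PVALB nor HSP90AB1 was called in share. An identifier of the creatine kinase CKB, whose symbol is shared by 2 identifiers and which was picked after its values were seen, was at 7077 and 5879 CPM in SPT-r and 9570 and 7630 CPM in SPT-e.

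**Figure D4:**
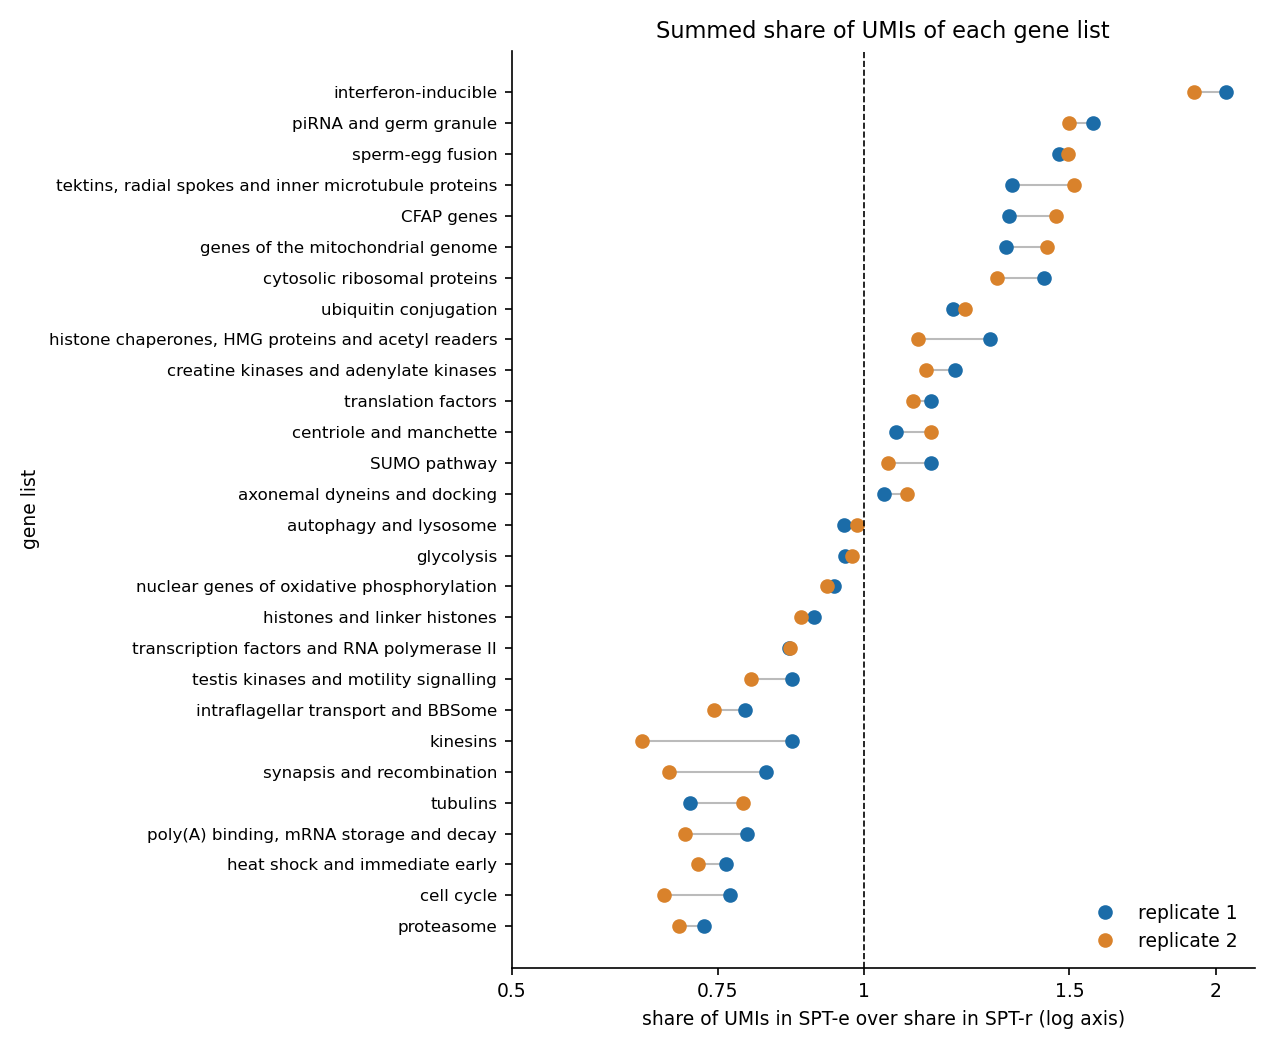
Share of UMIs of each of 28 gene lists in SPT-e over that in SPT-r (log axis), with a point for replicate 1 (blue) and replicate 2 (orange) and a dashed line at no change. Interferon-inducible, piRNA, sperm-egg fusion and axoneme lists lie to the right, and proteasome, cell cycle, heat shock and tubulin lists to the left. The sperm-egg fusion list owes most of its shift to cimap1b, which is named for ciliary microtubules. TMM factors moved the fitted log2 fold changes of genes up by a median of 0.47, and the shift of each replicate's points was not computed.

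Some histone genes, all of low counts, gained share. Of 33 histone genes tested, 7 were higher in share (21.2%) and 0 lower by edgeR, where all genes gave 6.25% and 17.7% (TMM 11 and 0, DESeq2 15 and 0). At an unadjusted p under 0.05, 2 were lower. The sum of the list fell in share, from 2.16% and 1.95% of UMIs in SPT-r to 1.96% and 1.72% in SPT-e. h2ax2, of the H2A.X family, rose also per cell, with 0 and 5 UMIs in SPT-r against 19 and 27 in SPT-e. Of 55 genes of histone chaperones, HMG proteins and acetyl readers 8 were higher and 6 lower (TMM 17 and 2, DESeq2 18 and 1). Their sum was 1.20 times as high in SPT-e, and 0.952 times with called doublets left out.

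HMGN2, a nucleosome-binding protein, was at 320 and 613 CPM in SPT-r and 950 and 1482 CPM in SPT-e, with a log2 fold change of 1.38 that was 0.99 without SPT-r replicate 1. hmgb1b, an HMG protein gene whose share of UMIs was highest in SPC-I of the 7 stages, was at 134 and 260 CPM in SPT-r and 484 and 399 CPM in SPT-e, a log2 fold change of 1.15. It was 0.76 without SPT-r replicate 1, 0.61 with doublets left out and 0.65 with transferred labels in both replicates, none of them called. DAXX, a chaperone of histone H3.3, fell from 81.7 and 83.4 CPM to 25.9 and 21.9 CPM.

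Some genes of spermatogonia gained share. Of 7 spermatogonial markers 6 were higher (TMM 6, DESeq2 7), and their sum went from 0.033% and 0.042% of UMIs to 0.064% and 0.086%, but from 2.77 and 3.97 UMIs per cell to 1.04 and 1.33. In a second list, the markers of SPG-Aun, 4 of 7 were higher, yet the sum went from 0.043% and 0.105% to 0.035% and 0.077%. PCNA, the sliding clamp of DNA replication, went from 23.9 and 30.2 CPM to 74.96 and 135 CPM, and the replicative helicase gene MCM4 from 10.1 and 11.4 CPM to 37.5 and 38.3 CPM. The log2 fold changes were 1.97 ± 0.27 and 1.80 ± 0.23 (edgeR, adjusted p = 8.43e-05 and 4.60e-05). insl3, the measure of free RNA, was not called in share but had the highest value in SPT-e replicate 2, and the part of free RNA in these marker levels was not tested.

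DDX4 and npm1a, 2 more of these markers, depended on SPT-e replicate 2, and their log2 fold changes of 1.10 and 1.47 were 0.75 and 0.40 without it. DDX4 also missed the limit without SPT-r replicate 1 (0.96) and with doublets left out (0.97), and npm1a lost its call without SPT-r replicate 1 (1.44) or 2 (1.52). The same held for NOP56, at 1.35 and 0.61, and for the call of MCM3, at 1.96 and 1.51. The sum of the spermatocyte markers did not gain, at 0.566% and 0.627% in SPT-r against 0.466% and 0.422% in SPT-e, but SYCP1 accounted for most of it. Of 6 tested, 0 were higher and 1 lower in share (TMM 1 and 0, DESeq2 2 and 0). Their median log2 fold change in share was -0.04, beside -0.38 over all genes.

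The cell cycle list held calls in both directions. Of 29 tested, 6 were higher (20.7%) and 8 lower (27.6%) in share, where all genes gave 6.25% and 17.7% (TMM 9 and 6, DESeq2 12 and 5). The 6 were PCNA, MCM2, MCM3, MCM4, MCM5 and cdc25b. CCNA2, a cyclin and the most abundant of the list in SPT-e, was at 698 and 632 CPM in SPT-r and 1207 and 999.6 CPM in SPT-e, a log2 fold change of 0.73 that was not called. aurka, a kinase of the spindle poles, went from 522 and 438 CPM to 127 and 90.7 CPM, or by -2.16 ± 0.24, and CDK1, TOP2A and AURKB, picked after their values were seen, fell by 1.97, 2.09 and 2.10. CDK1, the mitotic kinase, stood at 912 and 928 CPM in SPT-r and 252 and 218 CPM in SPT-e.

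Of 15 genes of the piRNA pathway and germ granules, which silence transposons in the germ line, 4 were higher (26.7%) and 1 lower (6.67%) in share (TMM 4 and 1, DESeq2 6 and 1). All genes gave 6.25% and 17.7%. The sum of the piRNA list was 1.57 and 1.499 times as high in SPT-e. gtsf1, a cofactor of Piwi proteins, accounted for most of it, with 508 and 529 CPM in SPT-r and 1420 and 1483 CPM in SPT-e, while its UMIs per 100 cells were 431 and 499 in SPT-r against 231 and 230 in SPT-e. Per cell its log2 fold change was -1.01, and -0.90 without SPT-r replicate 2. In replicate 1, gtsf1 was at 283 CPM in SPT-r cluster 7, 1018 CPM in SPT-r cluster 11 and 1243 CPM in SPT-e cluster 2. PIWIL1 was not called in share (0.50). TDRD3, a Tudor domain protein, fell by 1.87.

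Of 30 genes of synapsis and recombination 1 was higher (3.33%) and 6 lower (20%) in share, where all genes gave 6.25% and 17.7% (TMM 6 and 1, DESeq2 8 and 1). SYCP1, a protein of the synaptonemal complex that joins homologues in meiosis, was still at 4150 and 4597 CPM in SPT-r and at 2958 and 2929 CPM in SPT-e, with no call. mlh3, of the crossover machinery, fell from 73.2 and 47.4 CPM to 18.7 and 10.2 CPM. ESCO2, a cohesin acetyltransferase, rose in share, from 20.2 and 32.6 CPM to 153 and 91.4 CPM.

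Genes of the cytosolic ribosome rose in share as a list but differed between replicates by slightly more than between stages, at 3.18% and 4.64% of UMIs in SPT-r against 4.54% and 6.02% in SPT-e. The ratio was 1.43 and 1.30 within replicates, and 1.18 on average with doublets left out. Of 83 tested, 3 were higher and 0 lower in share by edgeR (TMM 37 and 0, DESeq2 49 and 0), with 1 lower at an unadjusted p under 0.05. RPS3A, a protein of the small subunit, went from 111 and 158 CPM to 285 and 392.3 CPM. Of 81 translation factors 2 were higher (2.47%) and 9 lower (11.1%), where all genes gave 6.25% and 17.7% (TMM 8 and 4, DESeq2 14 and 1). The start site selection factor EIF1, the most abundant, was at 1368 and 1402 CPM in SPT-r and 2374 and 2363 CPM in SPT-e, with no call in share.

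Of the energy genes, those of the mitochondrial genome took a larger share as a sum and the nuclear ones a similar one. Those of the mitochondrial genome took 0.980% and 0.919% of UMIs in SPT-r against 1.30% and 1.32% in SPT-e, with 0 of 13 called by edgeR (TMM 4 and 0, DESeq2 8 and 0), and 9 higher and 0 lower at an unadjusted p under 0.05. Nuclear genes of oxidative phosphorylation stayed at 2.47% and 2.49% against 2.33% and 2.32%, with 4 of 109 higher and 5 lower (TMM 13 and 3, DESeq2 14 and 1). Glycolysis genes took 0.114% and 0.117% against 0.109% and 0.114%, and creatine and adenylate kinases 1.09% and 0.921% against 1.31% and 1.04%. Per cell, 13 of 13 mitochondrial genes and 107 of 109 nuclear ones were lower.

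In the list drawn up for sperm and egg fusion 5 of 14 genes could be matched, and 0 were called in share by edgeR (TMM 2 and 0, DESeq2 2 and 0), with 2 higher and 1 lower at an unadjusted p under 0.05. Their sum went from 0.2599% and 0.242% to 0.382% and 0.362%. cimap1b, named for ciliary microtubules and not a fusion gene, was the most abundant, with 1424 and 1285 CPM in SPT-r and 2600 and 2440 CPM in SPT-e. It accounted for most of the rise of the sum, which therefore shows no gain of fusion genes as a group. Its log2 fold change of 0.90 was 1.36 with TMM factors. Testis kinases and motility signalling genes had TSSK6 as the 1 gene higher on both scales, with 7 of 38 lower in share (TMM 3 and 3, DESeq2 4 and 2). prkar1ab, a regulatory subunit of protein kinase A, was the most abundant at 489 and 501 CPM in SPT-r and 657 and 656 CPM in SPT-e, with no call.

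3 more lists complete the account. Interferon-inducible genes had the largest ratio of shares of the lists plotted, at 0.158% and 0.171% of UMIs in SPT-r against 0.321% and 0.329% in SPT-e, most of it ifi27.4, with 3 of 34 higher and 3 lower (TMM 3 and 2, DESeq2 4 and 2). Heat shock and immediate early genes went from 1.49% and 1.63% to 1.13% and 1.18%, with 8 of 78 higher and 12 lower (TMM 9 and 7, DESeq2 13 and 5). Whether this list marks handling stress in these cells was not tested. Genes of poly(A) binding, mRNA storage and decay went from 0.670% and 0.651% to 0.532% and 0.458%, with 3 of 55 higher and 6 lower (TMM 7 and 2, DESeq2 11 and 2). YBX1, which packages stored messengers, was the most abundant of these in SPT-e and kept its share, at 1325 and 1155 CPM in SPT-r and 1150 and 1030 CPM in SPT-e.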

How the data were processed

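The authors mapped reads of 2 libraries of single testis cells to danRer11 and counted UMIs with Cell Ranger (7.2.0 by the submitters' notes, 6.1.2 by the matrix header). The deposited matrices hold whole-number UMI counts per gene and barcode, not normalised. Symbols of 29201 of 32520 identifiers came from a table of gene names. Cells with 200 to 7000 genes and at most 5% mitochondrial UMIs were kept. Labels of replicate 1 are the study's, available for 1999 cells of that replicate. Replicate 2 took them by a vote of 15 neighbours on 30 principal components of 2000 variable genes, from which 1612 genes, the listed ones, were left out, though not the pimr genes as such. The vote included 112 unlabelled cells of replicate 1 that passed the filters, and 338 cells of replicate 2 that fell to them got no stage. Cells of replicate 2 in a cluster of 844 cells, only 25 of them from replicate 1, got no stage either. No doublet was removed in the main setting.

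UMIs were summed by stage and replicate into 14 sums of 7 stages and tested with edgeR 4.0.16 (filterByExpr, quasi-likelihood F test, Benjamini-Hochberg over 14006 genes), scaled to UMI totals or to cell numbers. The biological coefficient of variation was 0.17. Tested on simulated counts, the fit recovered 98 of 200 changed genes and called 6 others, at an adjusted p below 0.05 with no fold limit. The simulated sums were drawn independently with 1 spread for all genes, so these counts are no error rate of the calls reported here. Alternatives were TMM, DESeq2 1.42.0, no filter, the 4 spermatid sums alone, a replicate block, leaving out each sum, and 5 choices of cells and labels. Same-numbered sums come from the same library, and their deviations correlated at 0.26 between SPT-r and SPT-e (0.08 to 0.47 over 21 pairs of stages).

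Named genes were the steepest and the most abundant genes with a symbol and at least 100 CPM, the study's markers and named genes, and the extremes of each list. Members and lists were chosen with earlier results of these data known, and genes that matched a list only by spelling were dropped. Thinning to 500 UMIs was done once with a fixed seed. Counting intervals and floors (3 UMIs) cover counting error only. Some genes and a sequence are not reported here.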

Additional observations from a re-analysis of the deposited data

How the results depend on the processing

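In share of UMIs 875 genes were higher and 2481 lower in SPT-e. With TMM factors these counts were 1629 and 1085, with the size factors of DESeq2 2029 and 859, and with its Wald test 2064 and 698. The main genes higher were all among those of TMM, and the TMM genes lower all among the main ones. In the fit of the 4 spermatid sums alone, 570 were higher and 1901 lower, but of 8791 genes tested in place of 14006. Leaving out 1 sum gave 511 to 850 higher and 1233 to 2366 lower, the lowest in both cases without SPT-e replicate 2. Per cell, 223 higher and 11706 lower became 186 to 210 and 10169 to 11550 without 1 sum, and no other setting moved either count by over 1.5 times. The replicate block gave 966 and 2674 in share and 228 and 11853 per cell. It changed named calls in 6 cases: in share dnajc5gb lost its call and grap2b gained one, and per cell insl3 (-1.74, and -2.49 to -1.55 under 5 further settings), STAR (-1.64), krt18a.1 (-2.18) and rac2 (-1.70) were called lower.

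Of 127 named genes, 73 kept their call in share under all settings and 54 did not, and per cell 104 and 23, with no sign turned in a call. The ratio of median UMIs per cell was 0.149 and 0.172 with 1 replicate each, 0.178 from means over cells and 0.211 over cells of at least 1000 UMIs. Without called doublets, 2 lists crossed a ratio of 1: autophagy and lysosome genes stood at 1.00 (0.974 in the main setting), and histone chaperones, HMG proteins and acetyl readers at 0.952 (1.20). The SPT-e sum of replicate 1 is the smallest of the 14, so genes of few UMIs there are measured least well. The causes of these changes were not tested.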
